A study of Mus musculus with 12 samples.

Results

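Leucocyte integrins and their selectin partner were followed through 9 genes: Itgam, Itgb2, Itgal, Itgax, Itga4, Itga5, Itgb1, Itgb7 and Selplg. They were the rows with those symbols among the 33531 gene symbols of each library, and all 9 were found. The libraries came from mouse acute myeloid leukaemia cells of the line CMM-tetON-shStat3, which carries the inv(16) rearrangement and, in every group including the PBS controls, a doxycycline-inducible hairpin RNA against Stat3. The cells were grown in NSG mice, which lack mature T, B and NK cells but keep their own myeloid cells. The first dose was given once leukaemia cells made up about 1% of the blood. The mice received CpG1668 (an agonist oligonucleotide for TLR9) together with doxycycline (CpG1668+Dox), CpG1668 alone, doxycycline alone (Dox), or PBS. The labels give 6 daily doses in one field and 3 doses on alternate days in another, and how these relate was not resolved here. GFP and mCherry double-positive cells were sorted from the spleen 1 day after dosing ended, and their RNA was sequenced, with 3 libraries in each of the 4 groups. Whether the replicates are different animals is not stated in the labels. The p-values therefore cover the spread among libraries alone, which may be technical, and all 12 libraries come from this 1 leukaemia line. No group received doxycycline without the hairpin, so effects of the drug and of the hairpin cannot be told apart.

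Integrins are cell surface receptors made of 1 alpha and 1 beta chain, and neither chain reaches the surface well without a partner. On leucocytes the beta2 chain (Itgb2, CD18) pairs with the alpha chains Itgal (CD11a, the LFA-1 receptor for ICAMs), Itgam (CD11b, the Mac-1 receptor for complement and fibrinogen that marks neutrophils and monocytes) and Itgax (CD11c, of dendritic cells and some macrophages). The beta1 chain (Itgb1) pairs with Itga4 to bind VCAM1 and with Itga5 to bind fibronectin, both used by progenitors to hold on to marrow stroma, and Itgb7 pairs with Itga4 to bind the gut addressin MAdCAM1. Selplg encodes PSGL-1, the sialomucin by which leucocytes roll on selectins before integrins arrest them.

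In GENCODE M21 (GRCm38) the alpha chain genes of the beta2 family lie together on the plus strand of chromosome 7, with Itgal (ENSMUSG00000030830.18) at 127296260 to 127335138, Itgam (ENSMUSG00000030786.18) at 128062640 to 128118491 and Itgax (ENSMUSG00000030789.9) at 128129547 to 128150657. Itgb2 (ENSMUSG00000000290.13) lies on chromosome 10 at 77530252 to 77565708 on the plus strand. Itgb1 (ENSMUSG00000025809.15) lies on chromosome 8 at 128685654 to 128733200 and Itga4 (ENSMUSG00000027009.18) on chromosome 2 at 79255426 to 79333123, both on the plus strand. Itga5 (ENSMUSG00000000555.8, 103344286 to 103366763) and Itgb7 (ENSMUSG00000001281.10, 102215995 to 102231944) lie on the minus strand of chromosome 15, and Selplg (ENSMUSG00000048163.13) on the minus strand of chromosome 5 at 113818536 to 113832644. Itga4 overlaps Cerkl on the other strand, and Itgam overlaps the gene model Gm49368 on its own strand. Whether reads were counted by strand is not given in the sources used here, so reads in those overlaps are uncertain.

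The 250 bases before the gene start are shown for an alpha chain gene that was higher after each treatment (Itgam), its neighbour (Itgax) and a beta1 pair whose level moved little (Itga4 and Itgb1). They are RefSeq sequences on GRCm38.p6, which gave a window for 6 of the 9 members. The windows are chr7:128062390-128062639, chr7:128129300-128129549, chr2:79255176-79255425 and chr8:128685404-128685653, each on the plus strand. Capitals mark the SPI1-type letters GAGGAA and the RUNX-type letters TGTGGT, read on either strand (as TTCCTC and ACCACA on the other).
Itgam: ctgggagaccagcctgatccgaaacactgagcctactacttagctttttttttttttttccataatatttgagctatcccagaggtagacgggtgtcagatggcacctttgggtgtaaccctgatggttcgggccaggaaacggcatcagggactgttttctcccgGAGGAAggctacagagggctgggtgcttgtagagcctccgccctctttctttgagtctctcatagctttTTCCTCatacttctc
Itgax: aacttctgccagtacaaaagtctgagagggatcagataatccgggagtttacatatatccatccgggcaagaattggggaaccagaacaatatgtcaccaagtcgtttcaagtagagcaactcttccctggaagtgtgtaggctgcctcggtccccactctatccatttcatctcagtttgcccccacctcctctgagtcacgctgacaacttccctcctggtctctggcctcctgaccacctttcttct
Itga4: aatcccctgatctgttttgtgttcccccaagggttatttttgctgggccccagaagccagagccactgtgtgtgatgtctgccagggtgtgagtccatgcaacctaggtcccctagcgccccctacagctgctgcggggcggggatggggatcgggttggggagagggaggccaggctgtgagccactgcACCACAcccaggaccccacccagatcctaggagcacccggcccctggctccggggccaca
Itgb1: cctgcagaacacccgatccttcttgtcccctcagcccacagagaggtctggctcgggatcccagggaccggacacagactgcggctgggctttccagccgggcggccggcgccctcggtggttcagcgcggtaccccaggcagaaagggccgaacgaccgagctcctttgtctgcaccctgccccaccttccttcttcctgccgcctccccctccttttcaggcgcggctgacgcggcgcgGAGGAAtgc
The Itgam window held GAGGAA at both -84 to -79 and -15 to -10 from the gene start, and the Itgb1 window held it at -9 to -4. Human ITGAM is known to be driven by SPI1 (PU.1) through a site close to its start. The Itga4 window held TGTGGT at -60 to -55 on the minus strand, and the Itgax window held neither set of letters. Of the 6 windows, 3 held GAGGAA and 1 held TGTGGT, against 23.4% and 14% of 32536 RefSeq promoter windows of the same length. The C/EBP-type letters TTNCNNAA were in 3 of the 6 (36.8% of all windows), the SP1-type GGGCGG in 4 (33.0%) and the GATA-type AGATAA in 1 (9.97%), with no match overlapping another. The Itga5 window, which is not shown, is among those counted for the SPI1-type, C/EBP-type and SP1-type letters. It lies at chr15:103366792-103367041 and does not adjoin the GENCODE gene end at 103366763. Its downstream bases did not match the transcript, so its place before the gene start is uncertain. A match of letters is a description of the window and says nothing about binding.

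Depth differed little between libraries, at an estimated 30320000 to 34880000 reads, and 11945 to 12454 genes per library had an RPKM (reads per kilobase of gene, scaled to library depth) of at least 1. Stat3, the target of the hairpin, was not lower where doxycycline was given, at 19.4 ± 0.331 RPKM in CpG1668+Dox, 18.2 ± 0.483 in CpG1668, 18.9 ± 0.173 in Dox and 17.2 ± 0.576 in PBS (SD, n = 3 each), so Dox and CpG1668+Dox below mean the libraries labelled so. Of the leukaemia and progenitor genes, Kit was at 15.8 to 19.7 RPKM in the 12 libraries, while Cd34 was at 0.487 or less. Within that low range Cd34 averaged 0.395 RPKM in CpG1668+Dox, 0.258 in CpG1668, 0.148 in Dox and 0.0404 in PBS. Hoxa9 averaged 0.129, 0.107, 0.0644 and 0.0151 in the same order. In bulk RNA, fewer cells of a type and less RNA per cell cannot be told apart. For the 8 members that passed a mean of 1 RPKM and so were among the 12167 genes of the limma fit, changes are given as log2 fold changes of RPKM + 1 and called at a Benjamini-Hochberg adjusted p under 0.05. Itgax stayed below that filter. In that fit Stat3 was called higher in CpG1668+Dox against PBS (0.16, limma adjusted p = 0.0068) and in Dox against PBS (0.13, adjusted p = 0.044). It was not called in CpG1668 against PBS (0.08, adjusted p = 0.23) or in CpG1668+Dox against CpG1668 (0.09, adjusted p = 0.22). Of the 4 leukaemia and progenitor genes tested, 1 was called higher and 0 lower in CpG1668+Dox against PBS (9.13% and 6.40% of all genes). It was 1 and 1 in CpG1668 against PBS (3.06% and 2.83%) and 1 and 0 in Dox against PBS (3.95% and 2.04%).

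By mean RPKM over the 12 libraries the order was Itgb1 (146), Itgb7 (35.5), Itga4 (16.1), Itgb2 (15.4), Selplg (9.65), Itga5 (6.47), Itgal (6.13), Itgam (5.65) and Itgax (0.858). The ranges of Itgb1 (138 to 155) and Itgb7 (33.2 to 39.2) met neither each other nor any other member's range. Itgb2 ran from 6.83 to 31.4 and so spanned the range of Itga4 (14.4 to 17.7), and Itga5, Itgal and Itgam overlapped one another. The members differed most in how far their libraries lay apart. The highest library was 24.8 times the lowest for Itgam, 4.6 times for Itgb2, 3.88 times for Itgax, 2.13 times for Itgal and 1.84 times for Selplg. It was 1.43 times for Itga5, 1.22 times for Itga4, 1.18 times for Itgb7 and 1.12 times for Itgb1.

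**Figure D1:**
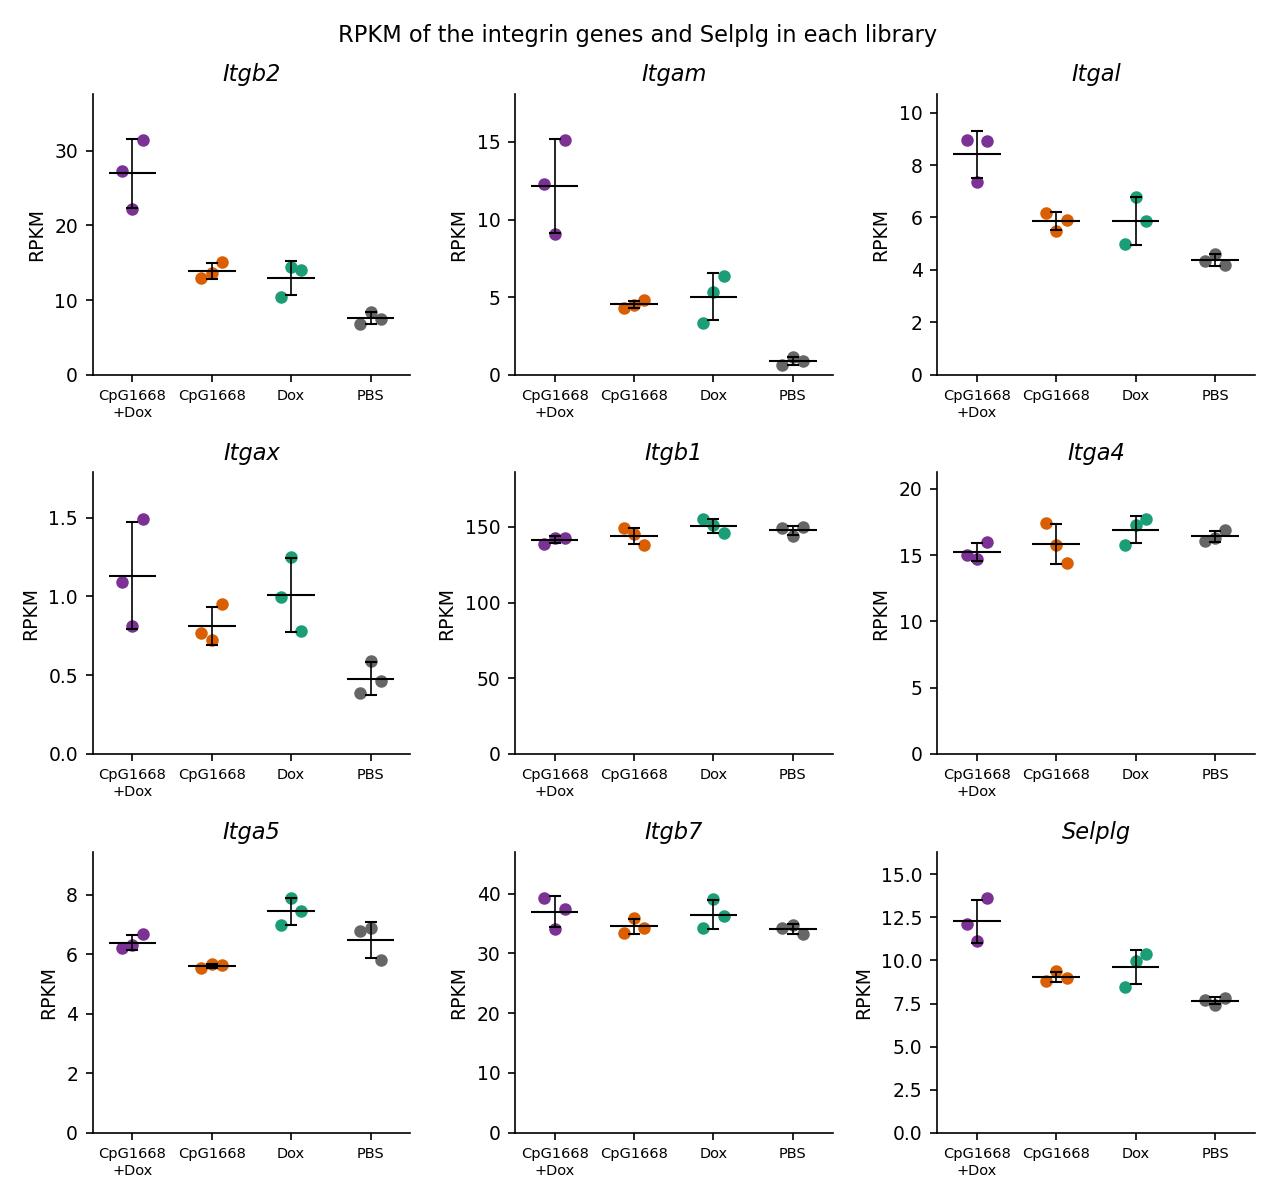
RPKM of each member in the 12 libraries (points), with the mean (long bar) and SD of 3 libraries (error bars), each panel on its own linear axis from 0. Itgam, Itgb2, Itgal and Selplg have their 3 CpG1668+Dox libraries above all others, while Itgb1 stays between 138 and 155 RPKM.

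CpG1668+Dox against PBS asks how the leukaemia cells differed after both agents. The beta2 chain, its alpha chains Itgam and Itgal, and Selplg rose, and no member of the beta1 and beta7 group was called. Of the 8 members tested 4 were called higher and 0 lower, where 9.13% of all genes tested were called higher and 6.40% lower. The members' median log2 change was 0.36, against 0.0028 over all genes.

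Itgam, which marks cells maturing along the neutrophil and monocyte lines, had 12.3, 9.10 and 15.1 RPKM in CpG1668+Dox, 4.29, 4.51 and 4.79 in CpG1668, 3.36, 5.36 and 6.35 in Dox, and 0.609, 1.14 and 0.874 in PBS. The CpG1668+Dox libraries lay above all others, the single-agent libraries overlapped each other and lay above PBS. The means were 12.2 ± 3.01, 4.53 ± 0.250, 5.02 ± 1.53 and 0.873 ± 0.264 RPKM in that order, so that CpG1668+Dox was 13.9 times, CpG1668 5.19 times and Dox 5.75 times PBS. The log2 change in CpG1668+Dox against PBS was 2.80 (SE 0.19, limma adjusted p = 2.7e-06).

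Itgb2, the chain that Itgam and Itgal share, had 27.3, 22.2 and 31.4 RPKM in CpG1668+Dox, 13, 13.6 and 15.1 in CpG1668, 10.4, 14.4 and 14.1 in Dox, and 6.83, 8.46 and 7.50 in PBS. It showed the same layering, with CpG1668+Dox on top, the single agents overlapping in the middle and PBS lowest. Against PBS the CpG1668+Dox mean was 3.55 times as high (27.0 ± 4.59 against 7.60 ± 0.820 RPKM), a log2 change of 1.69 (SE 0.13, limma adjusted p = 6.6e-06).

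Itgal, the alpha chain of LFA-1, had 8.94, 7.36 and 8.92 RPKM in CpG1668+Dox, 6.17, 5.50 and 5.91 in CpG1668, 4.98, 6.79 and 5.85 in Dox, and 4.33, 4.61 and 4.19 in PBS. Its groups were closer together, and the lowest CpG1668+Dox library (7.36) still lay above the highest Dox library (6.79). The CpG1668+Dox mean of 8.41 ± 0.909 RPKM was 1.92 times the PBS mean of 4.38 ± 0.216, and the log2 change was 0.80 (SE 0.09, limma adjusted p = 0.00012).

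Itgax had 1.09, 0.813 and 1.49 RPKM in CpG1668+Dox, 0.767, 0.725 and 0.949 in CpG1668, 0.996, 1.25 and 0.778 in Dox, and 0.384, 0.590 and 0.460 in PBS. The treated groups overlapped one another and all their libraries lay above PBS. At these levels 3 reads would give up to 0.0245 RPKM, and the libraries held an estimated 50 to 186 reads. Fitted without the filter on low genes, Itgax rose by 0.52 in CpG1668+Dox against PBS (SE 0.13, limma adjusted p = 0.038), while CpG1668 (0.30, adjusted p = 0.36) and Dox (0.44, adjusted p = 0.16) were not called.

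Because the beta2 alpha chains use 1 beta chain, their make-up was set out per library as shares of the summed RPKM of Itgal, Itgam, Itgax and Itgad, a further alpha chain of the family next to Itgax on chromosome 7 (128154376 to 128223816). Itgam made up 52.2, 49.9 and 54.5% of that sum in CpG1668+Dox, 35, 38.1 and 36.7% in CpG1668, 33.8, 37.9 and 47.2% in Dox, and 10.7, 16.1 and 14.8% in PBS. Itgal made up 36.9% ± 4.22 in CpG1668+Dox, 47.3% ± 2.68 in CpG1668, 47.3% ± 3.45 in Dox and 71.0% ± 5.46 in PBS (SD, n = 3 each). Itgal was thus the leading alpha transcript in every PBS and CpG1668 library and Itgam in every CpG1668+Dox library, and the libraries labelled Dox were mixed, with 1 of 3 led by Itgam. Itgax held 4.83% ± 0.485, 6.55% ± 0.622, 8.24% ± 2.20 and 7.66% ± 0.813 and Itgad 6.08% ± 1.60, 9.51% ± 1.23, 4.83% ± 1.21 and 7.45% ± 2.23, both in CpG1668+Dox, CpG1668, Dox and PBS in that order. These shares are descriptions with no test.

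The summed alpha transcripts kept close to the beta chain. Their sum was 23.2 ± 4.76 RPKM in CpG1668+Dox, 12.4 ± 0.620 in CpG1668, 12.5 ± 2.26 in Dox and 6.20 ± 0.741 in PBS. Divided by Itgb2 it was 0.854 ± 0.0322, 0.893 ± 0.0430, 0.963 ± 0.0148 and 0.816 ± 0.0259 in the same order of groups. The ratio of Itgb1 to Itgb2, the beta chains of the 2 families, was 5.35 ± 0.960 in CpG1668+Dox, 10.4 ± 1.15 in CpG1668, 11.9 ± 2.61 in Dox and 19.6 ± 2.43 in PBS. Itgb1 itself stayed between 138 and 155 RPKM.

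**Figure D2:**
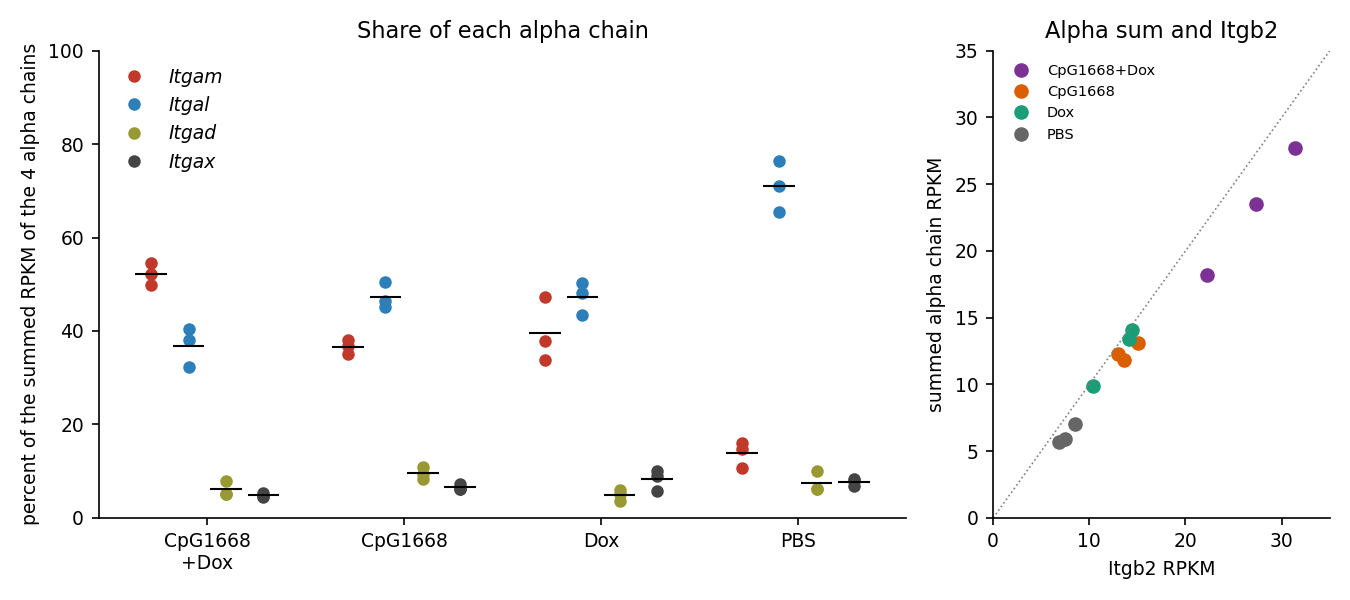
Left, the percentage of the summed RPKM of Itgal, Itgam, Itgax and Itgad that each holds (points, 3 libraries a group; bars, means). Right, that sum against Itgb2 RPKM, 1 point a library, with the dotted line marking equal values: Itgam holds 49.9 to 54.5% in CpG1668+Dox and 10.7 to 16.1% in PBS, and the sum stays between 0.786 and 0.980 times Itgb2.

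Itgb1, Itgb7 and Itga4 had the highest mean RPKM of the members, and their groups lay close together. Itgb1 had 139, 143 and 143 RPKM in CpG1668+Dox, 149, 145 and 138 in CpG1668, 155, 151 and 146 in Dox, and 149, 144 and 150 in PBS. All 3 CpG1668+Dox libraries lay below the 3 PBS libraries, by a log2 difference of -0.06 (95% interval -0.14 to 0.02) that was not called (limma adjusted p = 0.30). After quantile normalization it was -0.15 (adjusted p = 0.037), a call that the other alternatives did not give.

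Itga4, the VCAM1 receptor chain, had 15.0, 14.7 and 16.0 RPKM in CpG1668+Dox, 17.4, 15.8 and 14.4 in CpG1668, 15.8, 17.3 and 17.7 in Dox, and 16.1, 16.3 and 16.9 in PBS. The CpG1668+Dox libraries lay just below PBS and the other groups overlapped it, and the log2 change in CpG1668+Dox against PBS was -0.10 (95% interval -0.24 to 0.03, limma adjusted p = 0.30). Itgb7 ran from 34.1 to 39.2 RPKM in CpG1668+Dox, from 33.4 to 35.9 in CpG1668, from 34.2 to 39.1 in Dox and from 33.2 to 34.8 in PBS, so that all groups overlapped (0.11 in CpG1668+Dox against PBS, 95% interval -0.02 to 0.24, adjusted p = 0.22). The ratio of Itga4 to Itgb7 was 0.414 ± 0.0272 in CpG1668+Dox, 0.460 ± 0.0526 in CpG1668, 0.464 ± 0.0239 in Dox and 0.482 ± 0.0227 in PBS.

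Itga5, the fibronectin receptor chain, was the member whose single-agent groups parted. It had 6.20, 6.30 and 6.66 RPKM in CpG1668+Dox, 5.52, 5.66 and 5.63 in CpG1668, 6.99, 7.87 and 7.43 in Dox, and 6.76, 6.88 and 5.79 in PBS. The CpG1668 libraries were the lowest and the Dox libraries the highest of all 12, with CpG1668+Dox between them and PBS overlapping CpG1668+Dox. Neither single agent was called against PBS (CpG1668 -0.18, 95% interval -0.30 to -0.05, limma adjusted p = 0.11, and Dox 0.17, 0.05 to 0.30, adjusted p = 0.12). In CpG1668+Dox against PBS the change was -0.01 (95% interval -0.14 to 0.11, adjusted p = 0.90). Without PBS 3, the lowest PBS library, CpG1668 against PBS became -0.24 (adjusted p = 0.024).

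Selplg, whose product binds selectins, rose with the beta2 group but less steeply. It had 12.1, 11.1 and 13.6 RPKM in CpG1668+Dox, 8.79, 9.37 and 8.96 in CpG1668, 8.48, 9.94 and 10.4 in Dox, and 7.71, 7.42 and 7.81 in PBS. The PBS libraries lay close together and below all treated ones, and the CpG1668+Dox libraries lay above all others. The means of 12.3 ± 1.28 in CpG1668+Dox and 7.65 ± 0.204 in PBS gave a ratio of 1.61 and a log2 change of 0.62 (SE 0.08, limma adjusted p = 0.00019).

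CpG1668 against PBS asks what the TLR9 agonist did alone. Itgam and Itgb2 rose, Itgal was at the threshold, and the others were not called. Of 8 members 3 were called higher and 0 lower, where 3.06% of all genes tested were called higher and 2.83% lower, and the members' median was 0.12 against -0.01 over all genes. Itgam rose by 1.57 (SE 0.19, limma adjusted p = 0.00071) and Itgb2 by 0.79 (SE 0.13, adjusted p = 0.0059). Itgal rose by 0.35 (SE 0.09), with an adjusted p that rounds to 0.05. That call was lost without any 1 of the 6 libraries compared, at adjusted p = 0.12, 0.097 and 0.13 without PBS 1, 2 and 3 and 0.14, 0.076 and 0.13 without CpG1668 1, 2 and 3. It was also lost with no filter on low genes (0.13), with no intensity trend (0.055) and with a replicate block (0.095). Selplg changed by 0.22 (adjusted p = 0.13, and 0.031, called, in a fit of the CpG1668 and PBS libraries alone), Itgb7 by 0.02 and Itgb1 by -0.04.

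Dox against PBS asks what the inducible hairpin and its inducer did, with Stat3 not lower in these libraries. Itgam rose to levels overlapping those in CpG1668, and Itgb2 and Selplg were called with smaller changes. Of 8 members 3 were called higher and 0 lower, where 3.95% of all genes were called higher and 2.04% lower, and the members' median was 0.23 against 0.01 over all genes. Itgam rose by 1.66 (SE 0.19, limma adjusted p = 0.0015), Itgb2 by 0.69 (SE 0.13, adjusted p = 0.013) and Selplg by 0.29 (SE 0.08, adjusted p = 0.045). Itgal changed by 0.35 (SE 0.09), the same size as with CpG1668, and was not called (adjusted p = 0.051). It was called without Dox 1 (0.44, adjusted p = 0.013), the library with the lowest Itgam, Itgb2, Itgal and Selplg of its group. The Itgb2 call was lost without Dox 2 (0.61, adjusted p = 0.064) and without Dox 3 (0.63, adjusted p = 0.055), and with no filter (adjusted p = 0.063). The Selplg call was lost without any 1 PBS library (adjusted p = 0.095, 0.14 and 0.099 without PBS 1, 2 and 3), without Dox 2 (0.16) or Dox 3 (0.15), and under 5 other settings (adjusted p from 0.052 to 0.13).

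For some members both agents together were also above either agent alone. In CpG1668+Dox against CpG1668, 4 of 8 members were called higher and 0 lower, where 3.07% of all genes were called higher and 0.197% lower. In CpG1668+Dox against Dox the numbers were again 4 and 0, where 2.81% were called higher and 0.666% lower. In both it was Itgam, Itgb2, Itgal and Selplg. The other 4 were not called. Against Dox, Itga5 was at -0.19 (95% interval -0.32 to -0.06), Itga4 at -0.14 (-0.28 to -0.01), Itgb1 at -0.09 (-0.17 to -0.01) and Itgb7 at 0.02 (-0.11 to 0.14). Itgam was 2.69 times its level in CpG1668 (log2 change 1.23, SE 0.19, limma adjusted p = 0.0079) and 2.42 times its level in Dox (1.14, SE 0.19, adjusted p = 0.0069). Itgb2 was 1.94 times as high as in CpG1668 (0.90, SE 0.13, adjusted p = 0.0066) and 2.08 times as high as in Dox (1.00, SE 0.13, adjusted p = 0.0014). The last of these was the single member call that a fit of just the CpG1668+Dox and Dox libraries kept, and there Itgam was at adjusted p = 0.073.

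Itgal rose by 0.45 against CpG1668 (SE 0.09, limma adjusted p = 0.025) and by 0.46 against Dox (SE 0.09, adjusted p = 0.018). Selplg rose by 0.40 against CpG1668 (SE 0.08, adjusted p = 0.017) and by 0.32 against Dox (SE 0.08, adjusted p = 0.037). Each of these 4 calls was lost when certain single libraries were left out. Against CpG1668, the Itgal call was lost without CpG1668+Dox 1 (0.10) or 3 (0.11) and without CpG1668 1 (0.066), 2 (0.10) or 3 (0.061), and the Selplg call without CpG1668+Dox 1 (0.060) or 3 (0.064) and without CpG1668 1 (0.077) or 3 (0.05 after rounding), all as adjusted p. Against Dox, Itgal was lost without CpG1668+Dox 1 (0.090) or 3 (0.076) and without Dox 1 (0.059) or 3 (0.055), and Selplg without CpG1668+Dox 1 (0.11) or 3 (0.12) and without Dox 1 (0.11) or 2 (0.074). The calls of Itgam and Itgb2 were kept without each library in turn.

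The libraries alone, with no model, gave the same layering. All 3 CpG1668+Dox libraries lay above all 3 PBS libraries for 4 of the 8 members and below them for 2 (Itga4 and Itgb1), where 18.8% of the 12167 genes lay above and 16.6% below. In CpG1668 against PBS 4 members lay above and 1 below, Itga5 (11.3% of genes above, 14.3% below), and in Dox against PBS 5 above, Itga5 among them, and 0 below (15.2% and 9.81%). CpG1668+Dox lay above CpG1668 for 5 members, Itga5 being the added one, and below for 0 (15.2% and 5.26%). It lay above Dox for 4 and below for 2, Itga5 and Itgb1 (8.84% and 10.3%). In CpG1668 against Dox 0 members lay above and 1 below, Itga5 (5.15% and 14.4%).

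**Figure D3:**
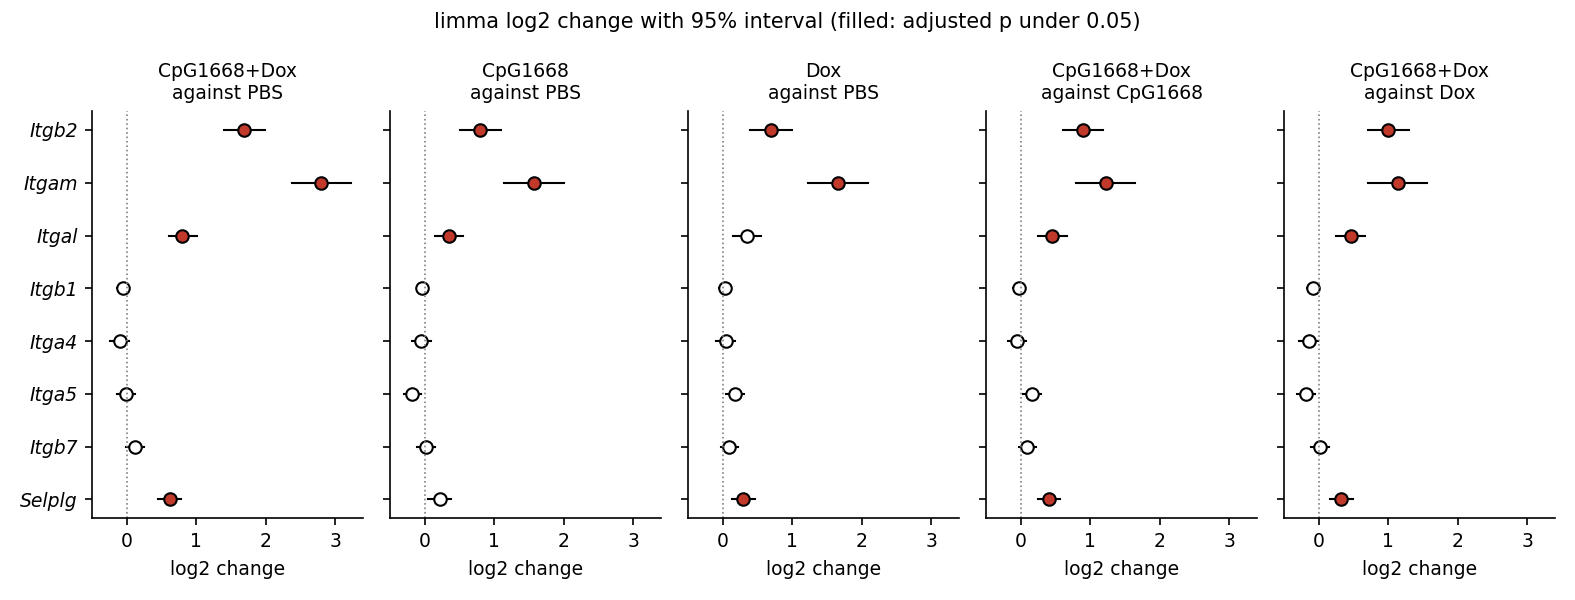
limma log2 changes of the 8 tested members with 95% intervals in 5 comparisons, filled where the adjusted p is under 0.05. Itgam has the largest change in every panel (2.80 in CpG1668+Dox against PBS), and the beta1 and beta7 group sits near 0.

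Whether the change with both agents differed from the sum of the single-agent log2 changes was asked through the interaction. On that scale a sum of changes stands for a product of ratios. limma called 0 of 12167 genes and 0 of 8 members (0% of genes called), and 812 genes and 0 members had an unadjusted p under 0.05. Itgam had an interaction of -0.43 (95% interval -1.04 to 0.17, adjusted p = 0.86), Itgb2 0.21 (-0.21 to 0.63, adjusted p = 0.93), Itgal 0.11 (-0.18 to 0.39, adjusted p = 0.95) and Selplg 0.11 (-0.12 to 0.34, adjusted p = 0.93). On the RPKM scale, which was not tested, the picture differs because sums and ratios are not the same scale. Itgam lay 11.3 RPKM above PBS in CpG1668+Dox, 3.65 in CpG1668 and 4.15 in Dox, the single agents adding up to 7.80. Itgb2 lay 19.4 RPKM above PBS in CpG1668+Dox, where the single agents added up to 11.7, and Selplg 4.64, where they added up to 3.36.

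CpG1668 against Dox sets the single agents beside each other. Of 8 members 0 were called higher and 1 lower, where 0.353% of all genes were called higher and 1.21% lower. The called member was Itga5, which was lower in CpG1668 than in Dox (log2 change -0.35, SE 0.06, limma adjusted p = 0.017), with means of 5.60 ± 0.0737 in CpG1668 and 7.43 ± 0.439 RPKM in Dox. The call was lost without CpG1668 1 (adjusted p = 0.076) or 2 (0.053), without Dox 2 (0.073) or 3 (0.059), and with no filter (0.057), with changes of -0.31 to -0.36. Itgam differed by -0.09 (95% interval -0.52 to 0.34), Itgb2 by 0.10 (-0.19 to 0.40), Itgal by 0.0038 (-0.20 to 0.21) and Selplg by -0.08 (-0.24 to 0.09), none of them called. Antigen presentation genes on the dendritic cell marker list moved the same way as Itga5, and the other markers on it did not all do so. The summed RPKM of all 10 markers ran from 41.5 to 45.4 in CpG1668 and from 55.4 to 75.3 in Dox, against 48.9 to 55.3 in CpG1668+Dox and 42.2 to 50.7 in PBS. Of the 4 tested, 3 were called lower in CpG1668 against Dox (median log2 change -1.29) and 3 higher in Dox against PBS (0.92), and 0 were called in CpG1668 against PBS. Over all genes, 1.21% were called lower in the first of these and 3.95% higher in the second. Cd74, the MHC class II invariant chain, was at 7.54 RPKM in CpG1668 and 22.1 in Dox. The class II genes H2-Aa (1.84 and 5.46) and H2-Ab1 (1.48 and 5.66) differed the same way. Bst2, the largest part of the sum, was level at 31.4 RPKM in CpG1668 and 32.1 in Dox. The other 6 averaged under 1 RPKM in every group, and Cd209a was at 0 in CpG1668+Dox. Among these 6, Zbtb46 was at 0.388 RPKM in CpG1668, 0.307 in Dox and 0.924 in PBS. The part of cells with these markers in the Itga5 difference was not tested.

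The called members moved beside markers of mature myeloid cells. The summed RPKM of 13 late neutrophil genes, among them S100a8, Ngp and Camp, ran from 1733.5 to 4553.8 in CpG1668+Dox, from 649 to 846 in CpG1668, from 583 to 2315.9 in Dox and from 108 to 220 in PBS. That of 10 monocyte genes, among them Lyz2 and F13a1, ran from 284 to 414 in CpG1668+Dox, from 127 to 148 in CpG1668, from 98.7 to 167 in Dox and from 22.6 to 40.1 in PBS. All 13 late neutrophil genes and all 9 monocyte genes tested were called higher in CpG1668+Dox against PBS, with median log2 changes of 3.83 and 1.97. In CpG1668 against PBS 9 of 13 and 9 of 9 were called higher (1.82 and 1.19), and in Dox against PBS 13 of 13 and 9 of 9 (2.39 and 0.83). Over all genes tested, 9.13%, 3.06% and 3.95% were called higher in these 3 comparisons. Within each of the 4 groups the 3 libraries had the same order by Itgam as by the late neutrophil sum. The Itgam order was also that of the monocyte sum in 3 of 4 groups and of the summed primary granule genes (below) in 3 of 4. It was that of the summed erythroid genes (below) in 2 of 4. These orders of 3 libraries were not tested. For Itgb2 the orders were the same in 3 of 4 groups with the late neutrophil sum and in 4 of 4 with the monocyte sum, for Selplg in 2 and 1, and for Itgal in 0 and 1. Per 1000 RPKM of monocyte genes, Itgam was at 34.8 ± 2.35 in CpG1668+Dox, 33.6 ± 1.29 in CpG1668, 34.9 ± 3.42 in Dox and 28.6 ± 1.74 in PBS. Itgb2 on that measure was at 77.9 ± 1.81, 103 ± 1.83, 92.3 ± 11 and 258 ± 45.6 in the same order of groups. Lyz2 made up most of the monocyte sum, with a mean of 288 of 347 RPKM in CpG1668+Dox and 22.0 of 30.5 in PBS. Per 1000 RPKM of late neutrophil genes, Itgam was at 4.19 ± 0.978, 6.38 ± 0.645, 4.20 ± 1.51 and 5.51 ± 0.295 in that order of groups. Itgb2 was then at 9.55 ± 3.01, 19.5 ± 1.53, 11.6 ± 5.87 and 50.3 ± 12.4.

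When the late neutrophil mean entered the fit as a further term, a choice made with the data in view, the number of members called higher was 0 in CpG1668+Dox, 1 in CpG1668 and 0 in Dox (each against PBS), 0 in CpG1668+Dox against CpG1668 and 2 in CpG1668+Dox against Dox. Over all genes that fit called 7, 76, 1, 0 and 170 in the same comparisons. The late neutrophil sum itself lay above PBS in every treated library, so the term cannot be separated from treatment. With it, the SE in CpG1668+Dox against PBS went from 0.09 to 0.23 for Itgal and from 0.13 to 0.20 for Itgb2. It went from 0.08 to 0.15 for Selplg and from 0.19 to 0.18 for Itgam. A lost call therefore does not show whether neutrophil content was involved. Itgam was at 1.07 in CpG1668+Dox against PBS (limma adjusted p = 0.072) and still called in CpG1668 against PBS (0.77, adjusted p = 0.0070) and in CpG1668+Dox against Dox (0.61, adjusted p = 0.0058). Itgb2 was at 0.59 in CpG1668+Dox against PBS (adjusted p = 0.32) and called in CpG1668+Dox against Dox (0.66, adjusted p = 0.0058). The summed RPKM of 5 primary granule genes such as Mpo ran from 145 to 322 in CpG1668+Dox, 109 to 128 in CpG1668, 31.4 to 64.0 in Dox and 5.44 to 6.46 in PBS. That of 11 spleen macrophage genes ran from 20.7 to 36.8, 17.7 to 26.7, 14.9 to 20.1 and 8 to 18.3 in the same order, with Vsig4 at 0 in CpG1668+Dox and PBS. Of the 7 tested, 1 was called higher in CpG1668+Dox against PBS, Adgre1 (5.33 against 0.802 RPKM), and 0 lower, where 9.13% and 6.40% of all genes were. Below the filter, Timd4 (0.0429 against 0.188) and Cd163 (0.104 against 0.186) had lower means in CpG1668+Dox. Summed B and plasma cell genes ran from 6.62 to 9.90 RPKM in CpG1668+Dox, 3.57 to 4.37 in CpG1668, 2.33 to 2.67 in Dox and 0.721 to 1.02 in PBS. Just 1 of these 7 genes, Ighm, passed the filter, and Ms4a1 and Pax5 were at 0 in CpG1668. Summed T and NK cell genes were at 0.700 RPKM or less in every library, with Cd3e and Trac at 0 in PBS. Summed mast cell and basophil genes, high in all 12 libraries, ran from 1491.5 to 1540.0 in CpG1668+Dox, 1225.0 to 1309.1 in CpG1668, 1320.3 to 1657.3 in Dox and 1201.2 to 1373.0 in PBS. Summed erythroid genes ran the other way, from 2118.1 to 3951.7 in CpG1668+Dox, 3974.7 to 6865.9 in CpG1668, 2073.3 to 5025.0 in Dox and 9887.9 to 13368.5 in PBS. The part of mature myeloid or host cells in the members' changes was not tested.

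**Figure D4:**
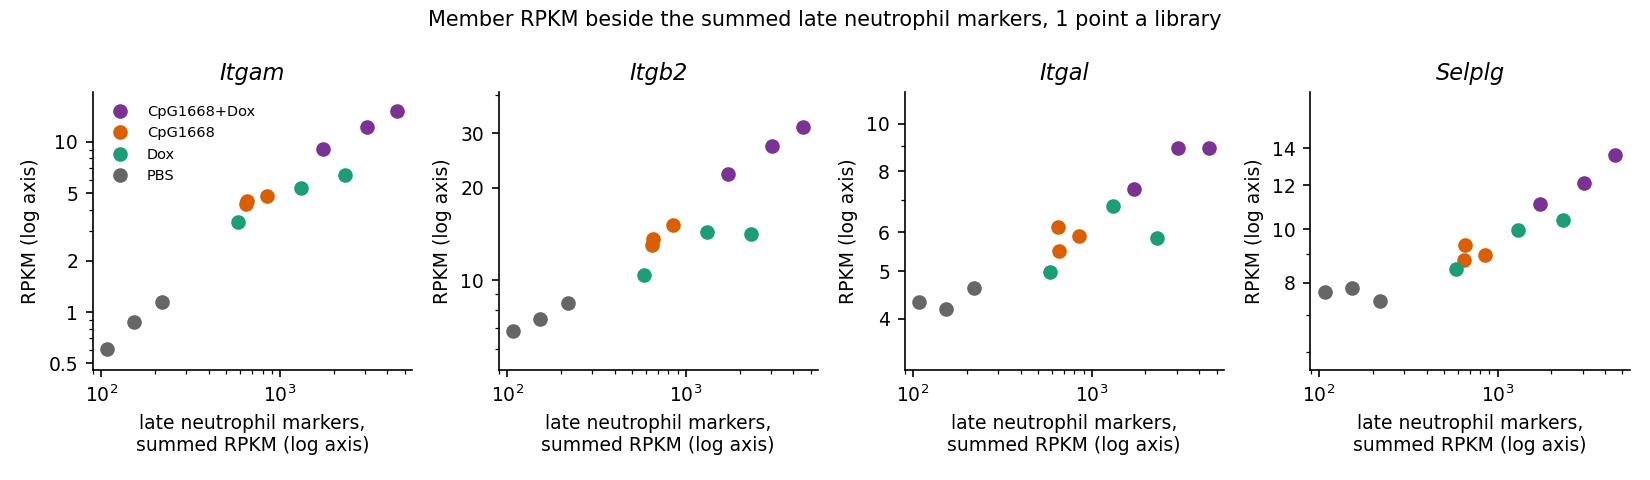
RPKM of Itgam, Itgb2, Itgal and Selplg (log axes) against the summed RPKM of 13 late neutrophil genes (log axis), 1 point a library. For Itgam the 3 libraries of each group fall in the order of the marker sum, which runs from 108 in a PBS library to 4553.8 in a CpG1668+Dox library.

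Genes whose levels followed each member most closely were taken by Pearson r of log2(RPKM + 1) over the 12 libraries, which share their treatment groups, so r is given as a description. Nearest to Itgam were Cybb (r = 0.997), a subunit of the phagocyte NADPH oxidase, the complement gene C3 (0.995) and the oxidase subunit Ncf1 (0.995). Nearest to Itgb2 were Apobr (0.994), Myo1f (0.993) and Xdh (0.993), nearest to Itgal Macroh2a1 (0.985), Klhl5 (0.981) and Akna (0.979), and nearest to Selplg Plcg2 (0.990), Stard5 (0.989) and Nfam1 (0.989). For the remaining tested members, the nearest genes were Dennd1b (0.942), Etnk1 and Ptger3 for Itga4, Cd99l2 (0.949), Glipr2 and Gch1 for Itga5, Sik3 (0.905), Septin8 and Dop1b for Itgb1, and Cd63 (0.916), Ap5b1 and Slco4a1 for Itgb7. Among the members themselves, Itgam, Itgb2, Itgal and Selplg had r from 0.944 to 0.976 with one another, Itgb7 had r from 0.601 to 0.680 with those 4, and Itgb1 had r from -0.595 to -0.460.

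The genes around the integrins were read from 6 lists. Over all genes tested, 9.13% were called higher and 6.40% lower in CpG1668+Dox against PBS. The shares were 3.06% and 2.83% in CpG1668 against PBS and 3.95% and 2.04% in Dox against PBS. Of 5 tested chains among 18 other integrin genes, 0 were called higher and 1 lower in CpG1668+Dox against PBS, and their median log2 change was -0.05. Itga9 fell by 0.20 on the log2 scale (limma adjusted p = 0.0080, 5.32 against 6.27 RPKM), and the platelet chain Itga2b was level at 23.2 RPKM in CpG1668+Dox, 22.7 in CpG1668, 23.4 in Dox and 23.4 in PBS. In CpG1668 against PBS 1 was lower, again Itga9, a call lost without PBS 1 or 3 and without CpG1668 2 or 3 (adjusted p = 0.071, 0.057, 0.069 and 0.065), and in Dox against PBS 0 were called.

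Genes that switch integrins on or carry their signals inside the cell rose in part. Of 21 tested, 11 were called higher and 0 lower in CpG1668+Dox against PBS (median 0.16), 5 and 0 in CpG1668 (0.08) and 4 and 0 in Dox (0.08), both also against PBS. Without each library in turn, the number higher was 9 to 11 in the first comparison, 3 in the second whichever of its 6 libraries was left out, and 2 to 5 in the third, with 2 called without Dox 2 or Dox 3. Genes called in CpG1668+Dox against PBS included the Src family kinase gene Fgr (1.82, limma adjusted p = 5.9e-06, 5.63 RPKM in CpG1668+Dox against 0.880 in PBS), whose product signals from beta2 integrins, and the kinase gene Fes (0.85, adjusted p = 0.00029). Fermt3 (kindlin-3), which binds beta chain tails, was abundant at 83.5 RPKM in CpG1668+Dox and 89.9 in PBS and was not called (-0.11, adjusted p = 0.082), nor was the small GTPase gene Rap1b (-0.07, adjusted p = 0.34).

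Of 7 tested integrin ligand genes 3 were called higher and 1 lower in CpG1668+Dox against PBS, and 2 and 0 in CpG1668 and likewise in Dox, with medians of 0.21, 0.10 and 0.23. C3, whose fragment iC3b is bound by Mac-1, rose by 2.86 (limma adjusted p = 1.7e-05, 13.8 against 0.980 RPKM) and the fibronectin gene Fn1 by 0.62 (adjusted p = 2.5e-05). The LFA-1 ligand Icam1 rose by 0.21 (adjusted p = 0.0086), while Icam2, another LFA-1 ligand, fell by 0.27 (adjusted p = 0.0036).

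Among genes for selectin carriers, the E-selectin ligand Glg1 was called higher in CpG1668+Dox against PBS (0.19, limma adjusted p = 0.013), a call lost without PBS 2 (0.053). The sialomucin genes Spn (106 RPKM in CpG1668+Dox and 117 in PBS) and Podxl (88.8 and 94.2) were not called. Of 10 tested glycan enzymes that decorate PSGL-1 and similar proteins, 1 was called higher and 2 lower in CpG1668+Dox against PBS (median -0.02), 1 and 1 in CpG1668 (-0.10) and 1 and 0 in Dox (-0.02). The 1 called higher in CpG1668+Dox is near the share over all genes (9.13%). The Dox call, St3gal4 (0.19), was lost without any 1 PBS library and without Dox 2 or 3, and the CpG1668 call of a lower gene, Galnt1 (-0.17, limma adjusted p = 0.021), without PBS 2 or 3 or CpG1668 3. C1galt1c1, the chaperone of core 1 O-glycan synthesis, rose by 0.74 in CpG1668+Dox against PBS (adjusted p = 2.7e-05). Tpst1, a tyrosine sulphotransferase (-0.24, adjusted p = 0.019), and Galnt1, which starts O-glycans (-0.15, adjusted p = 0.015), were lower there. The Tpst1 call was lost without PBS 1 or 2 or CpG1668+Dox 3 (0.069, 0.066 and 0.076) and the Galnt1 call without PBS 2 or 3 or CpG1668+Dox 3 (0.065, 0.054 and 0.057).

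Of 8 myeloid transcription factors, among them SPI1, which acts at beta2 integrin promoters, 6 were called higher and 0 lower in CpG1668+Dox against PBS, 4 and 0 in CpG1668 and 5 and 0 in Dox, with medians of 1.52, 0.94 and 0.70. Cebpe rose by 2.25 (limma adjusted p = 0.00019), Klf4 by 2.02 (adjusted p = 1.6e-08) and Cebpb by 1.68 (adjusted p = 2.3e-06) in CpG1668+Dox. Spi1 had 24.4, 22.4 and 25.2 RPKM in CpG1668+Dox, 19.2, 20.1 and 20.7 in CpG1668, 18.8, 21.4 and 20.8 in Dox, and 19.6, 17.6 and 17.4 in PBS. Its CpG1668+Dox libraries lay above all others (0.38 against PBS, adjusted p = 0.0014), and neither single agent was called (0.13 and 0.15 in CpG1668 and Dox). Runx1 was not called (-0.09, adjusted p = 0.36). With the late neutrophil mean in the fit the number of these factors called higher was 1, 3 and 0 in the 3 comparisons, and of the 21 activation genes 0, 0 and 0. That term itself followed the groups, so these lost calls do not show whether neutrophil content was involved.

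**Figure D5:**
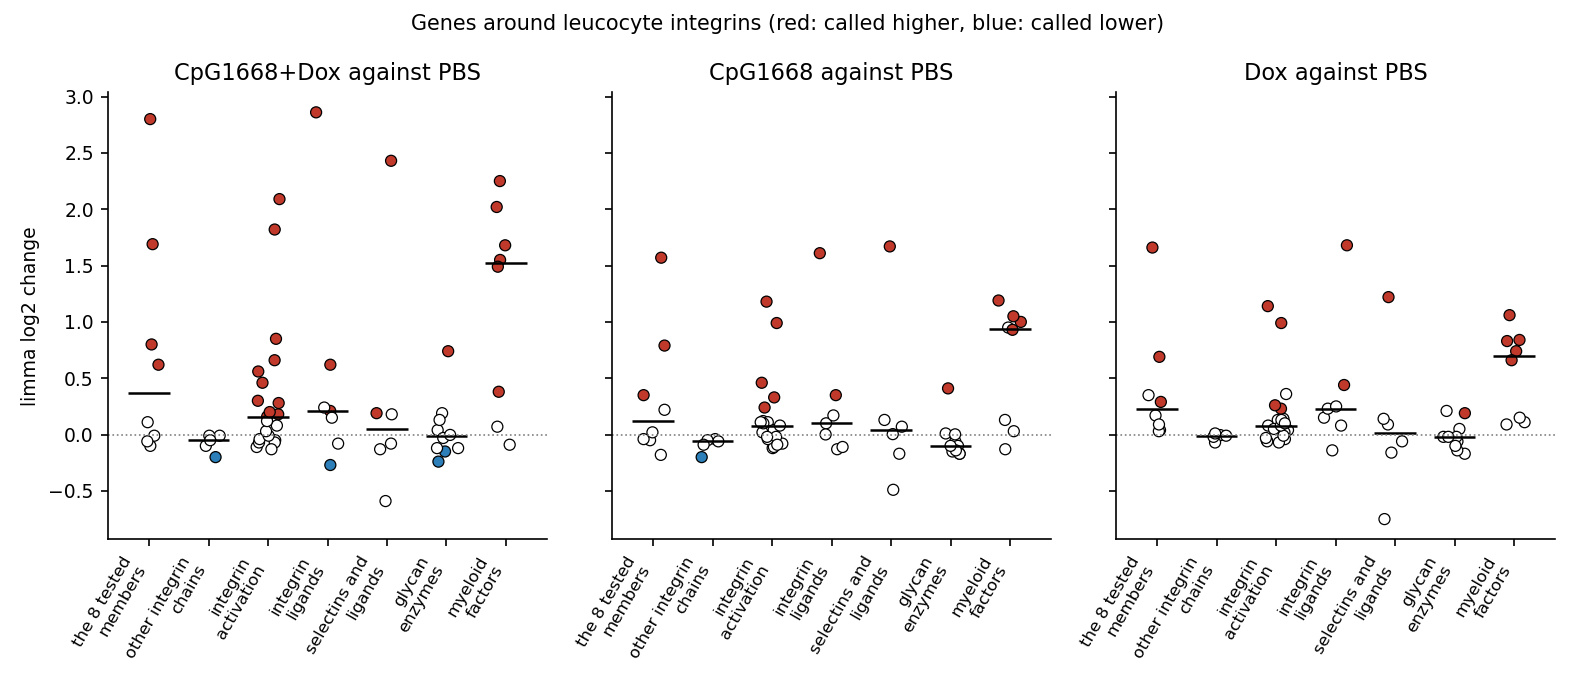
limma log2 changes of the tested genes of each list (points; bars, medians) in the comparisons of CpG1668+Dox, CpG1668 and Dox against PBS, which share the 3 PBS libraries. Red points were called higher and blue points lower; the myeloid factors have medians of 1.52, 0.94 and 0.70, and the other integrin chains of -0.05, -0.06 and -0.01.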

How the data were processed

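Each of the 12 libraries was deposited as a table of RPKM values per gene symbol, with no counts. Per the submitters' processing notes, the authors used STAR 2.7.9, Partek 7.18.0723 and the mm10 build, and how reads were assigned to genes is not given in the sources used here. The deposited RPKM values summed to 358132.9 to 382549.7 per library and went down to 1.4e-45 above 0, so whole reads were not recovered, and depth was estimated from the step of 1 read in genes with a single transcript (72.6% to 74.2% of 4851 to 5189 genes within 0.05 of a whole read). Precision limits from depth cover counting error only. The 12167 of 33531 genes whose RPKM averaged 1 or more were fitted as log2(RPKM + 1), which understates changes of low genes, with limma 3.58.1 in R 4.3.3: 4 group means, an intensity trend, 8 residual degrees of freedom, and Benjamini-Hochberg adjustment over all genes of each of 7 contrasts. The pipeline was tested on simulated data. The members and gene lists were chosen with earlier results of these data known. From each list the text names up to 3 called genes in each direction with the largest change in CpG1668+Dox against PBS and the 2 with the highest mean RPKM, except for results that are not reported here. Positions came from GENCODE M21, which held 96.6% of the symbols, and promoters from RefSeq. Alternatives were a pseudocount of 0.1, no filter or a filter at 5 RPKM, quantile normalization or median-of-ratios scaling, no trend, only the groups compared, a replicate block, each library left out, and a late neutrophil covariate added after the data were seen.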

Additional observations from a re-analysis of the deposited data

How the results depend on the processing

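In CpG1668+Dox against PBS the number of members called higher was 4 under the other settings except the covariate and the fit with no filter, which tested Itgax too and, with it, called 5. Leaving out each library gave 4 to 4, and quantile normalization added 1 called lower, Itgb1. Leaving out each library gave 2 to 2 called higher and 0 to 1 called lower in CpG1668 against PBS, 1 to 4 higher in Dox against PBS, 2 to 4 higher in both CpG1668+Dox against CpG1668 and against Dox, 0 to 1 lower in CpG1668 against Dox, and 0 for the interaction. With no filter, 1 member was called higher in Dox against PBS, 2 in CpG1668+Dox against CpG1668 and 2 against Dox, and 0 lower in CpG1668 against Dox; more genes are then tested. With only the groups compared, 1 was higher in CpG1668+Dox against Dox, where fewer samples give the spread. With the late neutrophil covariate the members higher were 0, 1, 0, 0 and 2 in the 5 comparisons led by CpG1668+Dox against PBS, in the order of the text, and 0 were lower in CpG1668 against Dox. With that covariate some changes took the opposite sign, and none of these was called. They were Itgb2 (-0.07, limma adjusted p = 0.90), Selplg (-0.08, 0.85) and Cebpe (-0.48, 0.63) in Dox against PBS. In CpG1668+Dox against PBS they were Fes (-0.06, 0.92), Icam1 (-0.02, 0.96), Icam2 (0.01, 0.99) and Tpst1 (0.13, 0.75). The covariate itself followed the groups, and the cause was not tested. Same-numbered libraries of different groups deviated together (r over 0.1) in 2 of 18 pairs, so the numbers were not taken as pairing. With the replicate block, the members called higher were 4 in CpG1668+Dox against PBS, and Itgal was no longer called in CpG1668 against PBS (adjusted p = 0.095) or in CpG1668+Dox against CpG1668 (0.055). Over all genes, the calls were 1890 in CpG1668+Dox against PBS, 1155 to 2624 under settings that kept all libraries (the covariate aside) and 1363 to 1544 with 1 library left out. In the same order of values they were 716, 455 to 767 and 367 to 479 in CpG1668 against PBS, where leaving out any 1 library but PBS 3 took the count down by over 1.5 times (456 and 381 without PBS 1 and 2, and 397, 472 and 367 without CpG1668 1, 2 and 3). In Dox against PBS they were 728, 355 to 761 and 313 to 747, with 385 and 404 without PBS 2 and 3 and 313 and 370 without Dox 2 and 3. In CpG1668+Dox against CpG1668 they were 397, 185 to 396 and 133 to 459, with 151 and 133 without CpG1668+Dox 1 and 3 and 135, 150 and 264 without CpG1668 1, 2 and 3. In CpG1668+Dox against Dox they were 423, 180 to 658 and 258 to 429, with 258 without CpG1668+Dox 1. In CpG1668 against Dox they were 190, 72 to 188 and 33 to 172, with 33, 70 and 92 without CpG1668 1, 2 and 3 and 69 and 76 without Dox 2 and 3. For the interaction they were 0, 0 to 12 and 0 to 1. Of the members' log2 changes under all these settings but the covariate, 745 kept direction and call, 52 lost a call, 5 gained one, 22 uncalled ones changed sign and 0 called ones did. Depth limits Itgax, at an estimated 50 to 186 reads a library.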

Other observations

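Several genes of the lists lay below the filter in mean RPKM and were fitted without it; those named here were chosen after their values were seen. Itgb5, the beta chain that pairs with Itgav to bind vitronectin, had 1.79, 1.48 and 1.51 RPKM in CpG1668+Dox, 0.839, 0.746 and 0.912 in CpG1668, 0.568, 0.530 and 0.515 in Dox, and 0.124, 0.329 and 0.150 in PBS, with no overlap between any 2 groups. Its log2 change against PBS was 1.11 in CpG1668+Dox (limma adjusted p = 6.6e-05), 0.61 in CpG1668 (adjusted p = 0.0058) and 0.36 in Dox (adjusted p = 0.061), where it was not called. Its partner Itgav was level, at 2.20 RPKM in CpG1668+Dox, 2.11 in CpG1668, 2.19 in Dox and 2.23 in PBS. Itgad, the neighbour of Itgax, was at 1.2, 0.946 and 2.19 RPKM in CpG1668+Dox and 0.344, 0.706 and 0.368 in PBS (0.71, adjusted p = 0.042).

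Fut7, the fucosyltransferase that completes sialyl Lewis x on PSGL-1, had 0.553, 0.401 and 0.727 RPKM in CpG1668+Dox, 0.286, 0.308 and 0.291 in CpG1668, 0.0531, 0.237 and 0.215 in Dox, and 0.0390, 0.0530 and 0.0414 in PBS. The CpG1668+Dox change was 0.57 (limma adjusted p = 0.0019), and neither CpG1668 (0.31, adjusted p = 0.088) nor Dox (0.16, adjusted p = 0.46) was called. Fut4, a related enzyme, changed by 0.45 in CpG1668+Dox (adjusted p = 0.0015). The P-selectin gene Selp was at 0.342, 0.254 and 0.424 RPKM in CpG1668+Dox and at 0.0147 or less in PBS (0.41, adjusted p = 0.00071).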
